A study of Mus musculus with 6 samples.

Results

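The 6 genes described here take glucose from outside the cell to fructose 6-phosphate. Slc2a1 and Slc2a3 encode the facilitative glucose transporters GLUT1 and GLUT3, Hk1 and Hk2 encode hexokinases, Adpgk encodes a glucose kinase that spends ADP, and Gpi1 encodes glucose-6-phosphate isomerase. They were listed by name and role, with earlier results of these data known, and all 6 were among the 17068 genes of the count matrix. By edgeR's test over all genes, Slc2a3 and Gpi1 rose in the libraries labelled Foxp1cKO, by 2.25-fold and 2.65-fold. Slc2a1, Hk2 and Hk1 were also higher there than in every control, by 2.48-fold, 2.14-fold and 1.44-fold, but did not pass that test. Adpgk was lower than in every control and did not pass either. DESeq2 called Slc2a1 and Hk2 higher as well, and the edgeR calls of Slc2a3 and Gpi1 were lost in some alternative fits.

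Glucose enters cells through transporters of the SLC2 family and is trapped inside when a hexokinase phosphorylates it to glucose 6-phosphate, which the isomerase then converts to fructose 6-phosphate for glycolysis. In brain, GLUT1 is the transporter of the capillary endothelium and is also made by glia and progenitors, whereas GLUT3 is known as the transporter of neurons. HK1 is the hexokinase of most brain cells, and HK2 is the form that proliferating and oxygen-poor cells commonly use.

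The data were bulk RNA-Seq counts of lateral cortex from female embryos of the c57/bl6 strain at E12.5, with 4 control libraries and 2 labelled Foxp1cKO. Controls 1, 2 and 4 were heterozygous for the floxed allele (Foxp1 fl/+), control 3 was Foxp1 fl/fl, and none of the 4 carried Cre. The Foxp1cKO libraries were Foxp1 fl/fl with Emx1Cre, which expresses the recombinase in the progenitors of the dorsal telencephalon and their descendants, so vessels, blood and meninges are outside its main lineage. Cre was present only in the Foxp1cKO group, so presence of Cre and deletion of Foxp1 cannot be told apart. The comparison asks how transcripts of glucose uptake and phosphorylation differ when Foxp1, a forkhead transcription factor, is to be removed from the cortex.

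Libraries held 50076008 to 78346979 counts on genes, and a floor of 3 counts equals 0.0381 to 0.0596 CPM, for counting error only. CPM are counts scaled to a common library size by the TMM method. The lowest count of any of the 6 genes in any library was 1273, far above that floor. Foxp1 itself, the targeted gene, showed no lower count in the Foxp1cKO group. It had 59.7, 60.8, 71.2 and 79.1 CPM in controls 1 to 4 and 83.2 and 76.8 CPM in Foxp1cKO 1 and 2, a difference of 0.24 on the log2 scale (SE, the standard error of the fit, 0.129, edgeR quasi-likelihood test, Benjamini-Hochberg adjusted p = 0.468). Counts per gene do not show which exons were present, and the groups keep the names in the labels. For these mutants the paper cites earlier work that found Cre recombination and significant loss of Foxp1 protein before the stage sampled here. Protein was not measured in these data, so the counts do not bear on that loss. The dorsal telencephalic markers Emx1, Emx2 and Lhx2 were detected in every library, with summed levels of 368 to 870.2 CPM in controls and 655 and 582 CPM in the Foxp1cKO libraries. Control 3 had the lowest dorsal sum and the highest sum of 4 ventral markers, 324.7 CPM, against 99.8 to 166 CPM in the other controls. Control 4 stood apart in its red cell markers, as described with the marker lists. No source used here says that each library came from a separate litter, and p-values measure the spread between these libraries.

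The promoters of the genes are shown because 5 of the 6 lay above every control in both libraries labelled Foxp1cKO, and because hypoxia-inducible factors, which are known activators of glucose transporter and hexokinase genes, bind a short core, ACGTG or GCGTG. The sequences are the 250 bases before the annotated start, from RefSeq on GRCm38.p6, 5′ to 3′ on the gene's strand. Capitals mark each core on either strand, so that CACGT and CACGC are the same cores read on the other strand, and cores that overlap are counted separately. Of the 6 genes, 5 matched the RefSeq promoter table, all but Slc2a3. The windows are chr4:119108495-119108744 (plus strand) for Slc2a1, chr6:82774455-82774704 (minus strand) for Hk2, chr7:34230337-34230586 (minus strand) for Gpi1 and chr9:59291322-59291571 (plus strand) for Adpgk.
Slc2a1: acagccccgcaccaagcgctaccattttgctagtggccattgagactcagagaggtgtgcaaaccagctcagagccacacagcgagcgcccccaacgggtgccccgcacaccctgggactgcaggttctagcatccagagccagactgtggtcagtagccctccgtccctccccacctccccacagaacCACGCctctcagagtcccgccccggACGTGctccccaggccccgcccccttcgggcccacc
Hk2: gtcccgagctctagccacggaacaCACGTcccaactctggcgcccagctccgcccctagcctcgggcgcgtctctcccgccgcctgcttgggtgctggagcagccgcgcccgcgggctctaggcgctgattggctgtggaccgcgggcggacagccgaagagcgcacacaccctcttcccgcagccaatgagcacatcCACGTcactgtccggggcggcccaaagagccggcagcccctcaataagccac
Gpi1: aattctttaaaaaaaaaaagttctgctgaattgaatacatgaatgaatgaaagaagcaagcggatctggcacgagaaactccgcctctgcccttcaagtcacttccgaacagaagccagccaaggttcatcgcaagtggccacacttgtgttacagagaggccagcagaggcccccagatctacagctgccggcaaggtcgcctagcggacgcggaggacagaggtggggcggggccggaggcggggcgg
Adpgk: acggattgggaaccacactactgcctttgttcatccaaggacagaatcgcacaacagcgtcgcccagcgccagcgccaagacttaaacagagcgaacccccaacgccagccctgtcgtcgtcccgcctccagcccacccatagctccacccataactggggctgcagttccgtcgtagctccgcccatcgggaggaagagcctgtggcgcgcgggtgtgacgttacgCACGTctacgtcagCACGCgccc
Slc2a1 held 2 cores, 61 and 36 bases before the start, and Hk2 held 2, at 226 and 52 bases. Gpi1, which rose, held 0 in this window, whereas Adpgk, the gene that was lower, held 2, at 23 and 9 bases. Hk1 has 2 annotated starts. The window of the first (chr10:62379909-62380158, minus strand) held 0 cores and that of the second (chr10:62340422-62340671, minus strand) held 3, and gene counts do not say which start was used. Among 32851 RefSeq promoters of the same length, 38.6% held at least 1 core and 16.7% held at least 2, so the matches describe these letters and nothing more. The forkhead motif GTAAACA, searched on both strands, was in 0 of these windows and in 3.17% of all promoters.

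Of the 6 genes, 2 rose and 0 fell by edgeR's quasi-likelihood test at an adjusted p under 0.05 over all 17068 genes, where 0.152% of genes rose and 0% fell. Both Foxp1cKO libraries lay above all 4 controls for 5 of the 6 genes, as for 11.5% of all genes, and below all 4 controls for 1, as for 13.1% of all genes. With DESeq2, 4 of the 6 rose, adding Slc2a1 and Hk2, where 1.75% of all tested genes rose. The median log2 fold change of the 6 genes was 1.14, beside -0.0044 over all genes. An unadjusted p under 0.05 in edgeR's test was found for 2224 of all 17068 genes. Counts at that threshold in the lists below are to be read beside this share. In bulk tissue, a lower or higher share of a cell type and a different amount of RNA per cell cannot be told apart.

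**Figure D1:**
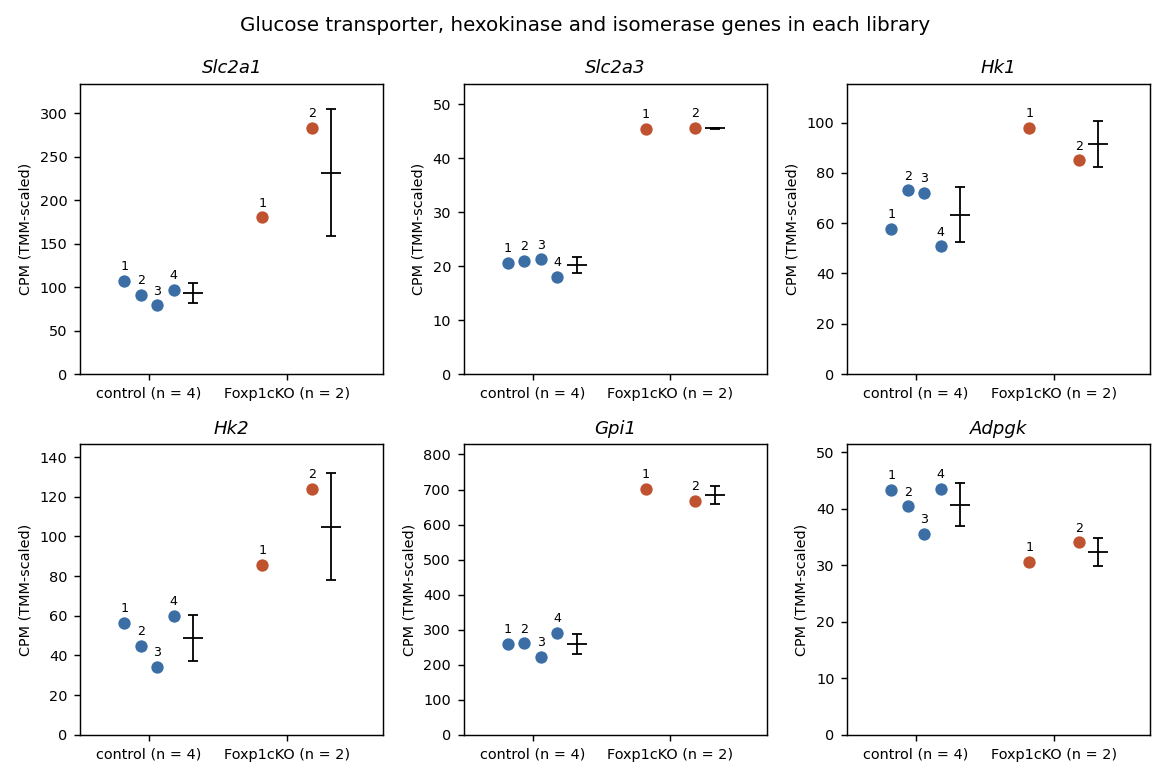
CPM after TMM scaling (vertical axes, from 0, a separate scale for each gene) of the 6 genes in each of 4 control libraries (blue) and 2 libraries labelled Foxp1cKO (orange), numbered by replicate. Bars show the mean ± SD of each group. The 2 Foxp1cKO points lie above all 4 controls for every gene but Adpgk, where they lie below, and their SD is 0.138 CPM for Slc2a3 but 72.8 CPM for Slc2a1.

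Of the transporters, Slc2a1 (ENSMUSG00000028645.11, GRCm38 chromosome 4, 119108711 to 119137983, plus strand) had 106.9, 91.3, 79.0 and 97.1 CPM in controls 1 to 4, against 180 and 283 CPM in Foxp1cKO 1 and 2. Both were above the highest control, and they were also far from each other. The means were 93.6 ± 11.7 (SD, n = 4) and 231.8 ± 72.8 CPM (SD, n = 2). The log2 fold change was 1.31 (SE 0.185, 95% interval 0.87 to 1.75), with a Benjamini-Hochberg adjusted p of 0.0758 in edgeR's quasi-likelihood test and of 1.55e-07 in DESeq2. The size rested in part on Foxp1cKO 2, since it was 0.93 without that library and 1.60 without Foxp1cKO 1.

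Slc2a3 (ENSMUSG00000003153.10, chromosome 6, 122727809 to 122801640, minus strand) was the most even of the 6 genes in the Foxp1cKO libraries. It had 20.6, 20.9, 21.3 and 18.1 CPM in controls 1 to 4 and 45.4 and 45.6 CPM in Foxp1cKO 1 and 2. The groups were well apart, with means of 20.2 ± 1.46 (SD, n = 4) and 45.5 ± 0.138 CPM (SD, n = 2). Slc2a3 rose by 1.17 on the log2 scale (SE 0.0919, 95% interval 0.96 to 1.39, edgeR quasi-likelihood test, Benjamini-Hochberg adjusted p = 0.00963). The same test gave adjusted p-values of 0.0726, 0.0763, 0.0792 and 0.162 without control 1, control 2, Foxp1cKO 1 and Foxp1cKO 2, while the log2 fold change stayed between 1.15 and 1.19 in these fits.

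Levels of different genes were compared as RPKM, that is CPM per kilobase of merged exons. Slc2a1 was the more abundant transporter transcript in every library. In controls it had a mean of 26.7 RPKM (22.5 to 30.5) against 2.79 RPKM (2.49 to 2.93) for Slc2a3. In the libraries labelled Foxp1cKO it had 66.1 RPKM (51.4 to 80.8) against 6.29 RPKM (6.27 to 6.30). Slc2a3 thus made up 8.25 to 11.5% of the per-length sum of both genes in controls and 10.9% and 7.23% in Foxp1cKO 1 and 2. The groups overlapped. The log2 ratio of Slc2a3 to Slc2a1 counts was -2.38, -2.12, -1.89 and -2.43 in controls 1 to 4 and -1.99 and -2.63 in Foxp1cKO 1 and 2. The difference of the means was -0.10 (p = 0.667, two-sided exact permutation test, 0.667 adjusted over 3 ratios, where the smallest p that 4 against 2 libraries allow is 0.133). It turned to 0.22 without Foxp1cKO 2. The sum of both transporters was 33.3, 28.9, 25.5 and 30.2 RPKM in controls 1 to 4 and 57.7 and 87.1 RPKM in Foxp1cKO 1 and 2, so that most of the added transporter transcript was Slc2a1.

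Of the 10 further sugar transporter genes in the table, 0 rose and 0 fell in edgeR or DESeq2 (0 at an unadjusted p under 0.05 in edgeR), and 0 were above all controls in both Foxp1cKO libraries. Their log2 fold changes ran from -0.19 to 0.25 with a median of -0.014. Slc2a4, the insulin-responsive transporter, had 11.9 CPM in controls and 10.7 CPM in the Foxp1cKO libraries. Slc2a8, an intracellular transporter, had 10.3 and 9.79 CPM, and Slc2a13, a proton-coupled inositol transporter, had 23.8 and 25.5 CPM. Slc2a5 (fructose), Slc2a9 (urate), Slc2a6, Slc2a10 and Slc2a12 each had under 5 CPM in both groups. Slc45a1 had a log2 fold change of -0.11 and Slc50a1 one of -0.19, the latter lower in both Foxp1cKO libraries than in every control (adjusted p = 0.631 from edgeR's test). The summed level of the 10 genes was 70.7 to 75.2 CPM in controls and 71.5 and 73.5 CPM in the Foxp1cKO libraries.

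Among 8 genes known to move transporters to or from the cell surface, 0 rose and 0 fell in edgeR's test (2 at an unadjusted p under 0.05). In DESeq2's test 2 of the 8 fell, beside 175 of 17052 tested genes. Those 2, Txnip and Arrdc4, encode arrestin-family proteins that promote uptake of GLUT1 from the surface and are themselves transcribed in response to glucose 6-phosphate. Txnip had 88.4, 73.9, 58.8 and 40.4 CPM in controls 1 to 4 and 11.96 and 11.97 CPM in Foxp1cKO 1 and 2. It was thus below every control, although the controls themselves were widely spread. The log2 fold change of Txnip was -2.45 (SE 0.317, adjusted p = 0.0647 in edgeR and 5.18e-14 in DESeq2). Arrdc4 had 32.4, 35.4, 33.6 and 23.4 CPM in controls and 15.5 and 13.7 CPM in the Foxp1cKO libraries, again with no overlap. Of all genes, 13.1% lay below every control in both Foxp1cKO libraries. The log2 fold change of Arrdc4 was -1.10 (SE 0.182, adjusted p = 0.132 in edgeR and 1.89e-05 in DESeq2). For both genes control 4 was the lowest control. The other genes, Stxbp4, Tbc1d4, Tbc1d1, Aspscr1, Snx27 and Gipc1, overlapped between the groups, with log2 fold changes from -0.11 to 0.42.

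Of the kinases, Hk1 (ENSMUSG00000037012.18, chromosome 10, 62268855 to 62379908, minus strand) had 57.6, 73.0, 72.0 and 50.8 CPM in controls 1 to 4 and 97.8 and 84.9 CPM in Foxp1cKO 1 and 2. The Foxp1cKO libraries were above all controls, but the controls spread by 17.3% of their mean (SD). The means were 63.3 ± 10.9 (SD, n = 4) and 91.4 ± 9.13 CPM (SD, n = 2). The log2 fold change of 0.53 did not pass (SE 0.161, 95% interval 0.15 to 0.91, Benjamini-Hochberg adjusted p = 0.289 in edgeR and 0.116 in DESeq2).

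Hk2 (ENSMUSG00000000628.10, chromosome 6, 82725025 to 82774454, minus strand) had 56.3, 45.0, 34.4 and 60.1 CPM in controls 1 to 4 and 85.8 and 124 CPM in Foxp1cKO 1 and 2. It was the most variable of the 6 genes among controls, with an SD of 23.7% of the mean, and the Foxp1cKO libraries lay above all of them. The means were 48.9 ± 11.6 (SD, n = 4) and 104.9 ± 27.0 CPM (SD, n = 2). The log2 fold change was 1.10 (SE 0.236, 95% interval 0.54 to 1.66), with an adjusted p of 0.236 in edgeR and 0.00176 in DESeq2. It was 0.80 without Foxp1cKO 2 and 1.34 without Foxp1cKO 1.

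Adpgk (ENSMUSG00000025236.11, chromosome 9, 59291558 to 59324052, plus strand) was the one gene of the 6 with the opposite sign. It had 43.4, 40.5, 35.6 and 43.6 CPM in controls 1 to 4 and 30.6 and 34.1 CPM in Foxp1cKO 1 and 2. Foxp1cKO 2 was close below control 3. The means were 40.8 ± 3.74 (SD, n = 4) and 32.3 ± 2.46 CPM (SD, n = 2), and the log2 fold change of -0.33 did not pass (SE 0.110, 95% interval -0.59 to -0.073, Benjamini-Hochberg adjusted p = 0.309 in edgeR and 0.157 in DESeq2).

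Hk2 and Hk1 had like levels per length in controls, 8.20 RPKM (5.77 to 10.1) and 7.42 RPKM (5.95 to 8.56), and their ranges overlapped. In the Foxp1cKO libraries Hk2 had 17.6 RPKM (14.4 to 20.8) and Hk1 10.7 RPKM (9.96 to 11.5), with no overlap. The order depends on the length used. Divided by the longest transcript, Hk1 had 14.8 RPKM and Hk2 8.88 RPKM in controls, with no overlap. In Foxp1cKO 1 and 2, Hk1 then had 22.9 and 19.9 RPKM and Hk2 15.6 and 22.5 RPKM, with overlap. The log2 ratio of Hk2 to Hk1 counts was -0.034, -0.70, -1.06 and 0.24 in controls 1 to 4 and -0.19 and 0.55 in Foxp1cKO 1 and 2. The groups overlapped, and the difference of 0.57 had p = 0.400 (two-sided exact permutation test, 0.600 adjusted over 3 ratios). The sum of both genes was steadier than either gene, at 16.2, 16.1, 14.2 and 16.0 RPKM in controls 1 to 4, and reached 25.8 and 30.7 RPKM in Foxp1cKO 1 and 2. The log2 ratio of Adpgk to Hk1 counts was -0.41, -0.85, -1.02 and -0.22 in controls 1 to 4 and -1.68 and -1.32 in Foxp1cKO 1 and 2. The Foxp1cKO libraries were below all controls, with a difference of -0.87 and p = 0.133, the smallest p the design allows (two-sided exact permutation test, 0.400 adjusted over 3 ratios).

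**Figure D2:**
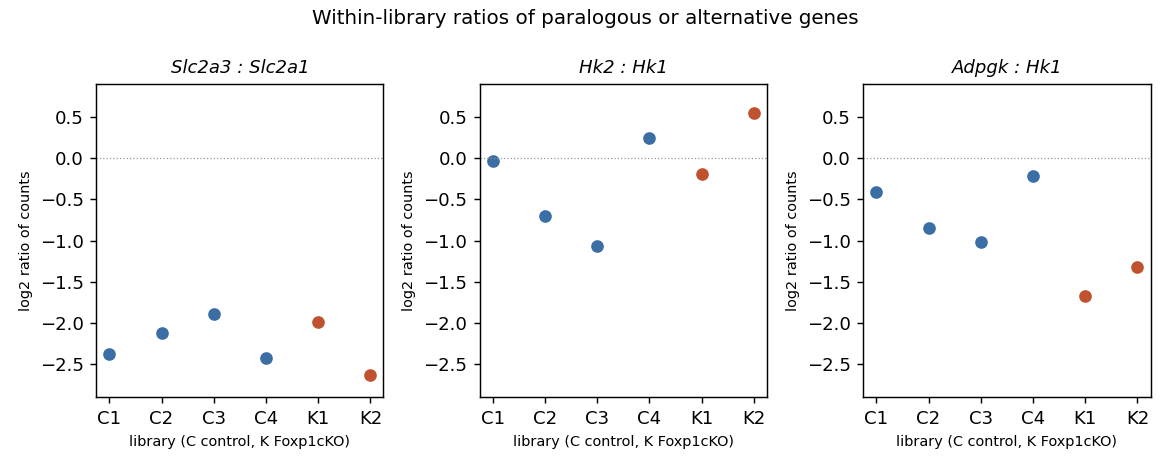
Log2 ratio of counts (vertical axis) of Slc2a3 to Slc2a1, Hk2 to Hk1 and Adpgk to Hk1 in each library, controls C1 to C4 in blue and libraries labelled Foxp1cKO, K1 and K2, in orange. Only for Adpgk to Hk1 do both Foxp1cKO libraries, at -1.68 and -1.32, lie outside the control range of -1.02 to -0.22.

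The controls that were low in Hk1 were high in Hk2. The summed level of 7 neuron markers was 3683, 4473, 4848 and 2687 CPM in controls 1 to 4. Control 4, with the lowest neuron sum, had the lowest Hk1 and the highest Hk2 and Adpgk, and control 3, with the highest neuron sum, had the lowest Hk2 and Adpgk. The Foxp1cKO libraries had neuron sums of 3525 and 3599 CPM, inside the control range and just below control 1. Against control 1 alone, whose neuron sum was nearest, the mean log2 difference of the Foxp1cKO libraries was 0.66 for Hk1, 0.87 for Hk2 and -0.43 for Adpgk. The signs could not have differed, since both Foxp1cKO libraries lay beyond every control for these genes. The part of neuron share in these values was not tested. None of the 7 neuron markers passed in edgeR or DESeq2 (0 at an unadjusted p under 0.05), with Neurod6 lowest at a log2 fold change of -0.40 and Bcl11b highest at 0.10.

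**Figure D3:**
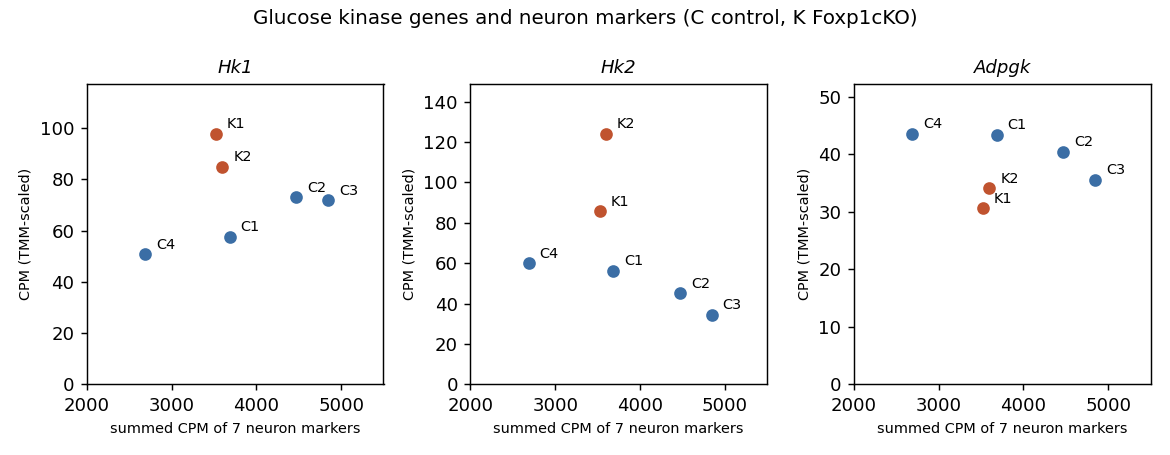
CPM of Hk1, Hk2 and Adpgk (vertical axes, from 0) against the summed CPM of 7 neuron markers (horizontal axis, not from 0) in controls (C1 to C4, blue) and libraries labelled Foxp1cKO (K1 and K2, orange). The Foxp1cKO libraries have neuron sums of 3525 and 3599 CPM, within the control range, while Hk1 and Hk2 lie above and Adpgk below all controls.

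Of 4 further hexokinase-family and glucose 6-phosphate genes reported here, 0 rose and 0 fell in edgeR's test (1 at an unadjusted p under 0.05). In DESeq2's test 1 of the 4 rose, beside 1.75% of all tested genes. Hk3, the hexokinase of leukocytes, had 0.639 CPM in controls and 0.800 CPM in the Foxp1cKO libraries, and Nagk, a kinase of N-acetylglucosamine, had 20.3 CPM in controls and 20.4 CPM in the Foxp1cKO libraries. G6pc3, a broadly expressed glucose-6-phosphatase, had a log2 fold change of 0.09. Slc37a4, which carries glucose 6-phosphate into the endoplasmic reticulum, had 13.0, 13.6, 13.1 and 12.5 CPM in controls 1 to 4 and 17.6 and 20.9 CPM in Foxp1cKO 1 and 2. It was above all controls in both, with a log2 fold change of 0.56 and an adjusted p of 0.225 from edgeR's test and 0.00141 from DESeq2.

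Gpi1 (ENSMUSG00000036427.5, chromosome 7, 34201330 to 34230336, minus strand) was the most abundant of the 6 transcripts per length. Its fold change was the largest of the 6 with all libraries, though not without Foxp1cKO 1, where Slc2a1 had a log2 fold change of 1.60 and Gpi1 one of 1.37. It had 259.6, 261, 221 and 291 CPM in controls 1 to 4 and 702 and 667 CPM in Foxp1cKO 1 and 2. The lowest Foxp1cKO library exceeded the highest control by far. The means were 258 ± 28.6 (SD, n = 4) and 685 ± 25.1 CPM (SD, n = 2). Gpi1 rose by 1.41 on the log2 scale (SE 0.109, 95% interval 1.15 to 1.66, edgeR quasi-likelihood test, Benjamini-Hochberg adjusted p = 0.00963). The adjusted p from the same test was 0.0672, 0.0763, 0.0746 and 0.114 without control 1, control 2, Foxp1cKO 1 and Foxp1cKO 2, at log2 fold changes of 1.37 to 1.43. The pseudogene Gm1840 shares 2.02% of the 100-base stretches of Gpi1's exons, and the other 5 genes share 0% with another annotated gene. On the opposite strand, 741 exon bases of Gpi1 overlap Gm26762, 157 of Hk1 overlap Hk1os, 194 of Adpgk overlap Bbs4 and 105 of Slc2a1 overlap Gm12868. The kit was stranded, but the strand setting of the counting is not given in the sources used here, so reads in these stretches may be shared.

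By length-scaled level, the order in controls was Gpi1 (40.0 RPKM), Slc2a1, Hk2, Hk1, Adpgk (4.24 RPKM) and Slc2a3. Among neighbours in this order, only Hk2 and Hk1 overlapped. In the libraries labelled Foxp1cKO the order was Gpi1 (106 RPKM), Slc2a1, Hk2, Hk1, Slc2a3 and Adpgk (3.37 RPKM), with no overlap between neighbours, so Slc2a3 and Adpgk had exchanged places. These orders and overlaps hold for merged exons. Divided by the longest transcript, Hk1 and Hk2 overlapped in the Foxp1cKO libraries, as given above. In controls, Hk1 (11.9 to 17.1 RPKM) then lay above Hk2 (6.25 to 10.9 RPKM) with no overlap. Hk2 then overlapped Adpgk (6.91 to 8.47 RPKM).

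The rest of the pathway was described from lists of genes. Of 16 genes that act after the isomerase, 2 rose and 0 fell in edgeR's test, beside 0.152% and 0% of all genes. Both Foxp1cKO libraries lay above all controls for 10 of the 16, beside 11.5% of all genes, and the median log2 fold change was 0.75. Aldoa, an aldolase, rose by 1.59 on the log2 scale (SE 0.129, adjusted p = 0.0104) and Pfkl, a phosphofructokinase that uses the product of Gpi1, rose by 1.29 (SE 0.116, adjusted p = 0.0162), both in edgeR. Aldoc, the aldolase of brain, had the lowest log2 fold change of the list, -0.19. DESeq2 called 8 of the 16 higher, beside 1.75% of all tested genes, and 0 lower. The list's sum was 3612 to 5558 CPM in controls, highest in control 4, and 7303 and 8541 CPM in the Foxp1cKO libraries.

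The branches that leave glucose 6-phosphate and fructose 6-phosphate were read in the same way. Of 8 pentose phosphate genes, 0 rose and 0 fell in edgeR (1 at an unadjusted p under 0.05). In DESeq2 1 of the 8, Taldo1, fell (adjusted p = 0.0452), beside 175 of 17052 tested genes. Both Foxp1cKO libraries lay below all controls for 2 of the 8, Taldo1 and G6pdx (named after its values were seen), beside 13.1% of all genes. The list had a median log2 fold change of -0.060 and ran from -0.25 (Taldo1, transaldolase) to 0.46 (H6pd, the enzyme of the endoplasmic reticulum). Of 5 hexosamine genes, 0 rose and 0 fell in edgeR or DESeq2 (0 at an unadjusted p under 0.05), with log2 fold changes between -0.14 (Pgm3) and 0.093 (Gfpt2). Of 6 glycogen entry genes, 0 rose and 0 fell in edgeR (2 at an unadjusted p under 0.05). In DESeq2 2 of the 6, Pgm1 and Gys1, rose, beside 1.75% of all tested genes. The median log2 fold change was 0.075 over the list. Pgm1, which interconverts glucose 6-phosphate and glucose 1-phosphate, had 25.2 CPM in controls and 61.8 CPM in the Foxp1cKO libraries (adjusted p = 0.0747 in edgeR and 1.24e-07 in DESeq2). Gys1, a glycogen synthase named here after its values were seen, had 44.4 and 64.1 CPM (adjusted p = 0.0817 in edgeR and 7.80e-06 in DESeq2). Both genes lay above all controls in both libraries, as did 11.5% of all genes, and Gyg was lowest at -0.093.

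**Figure D4:**
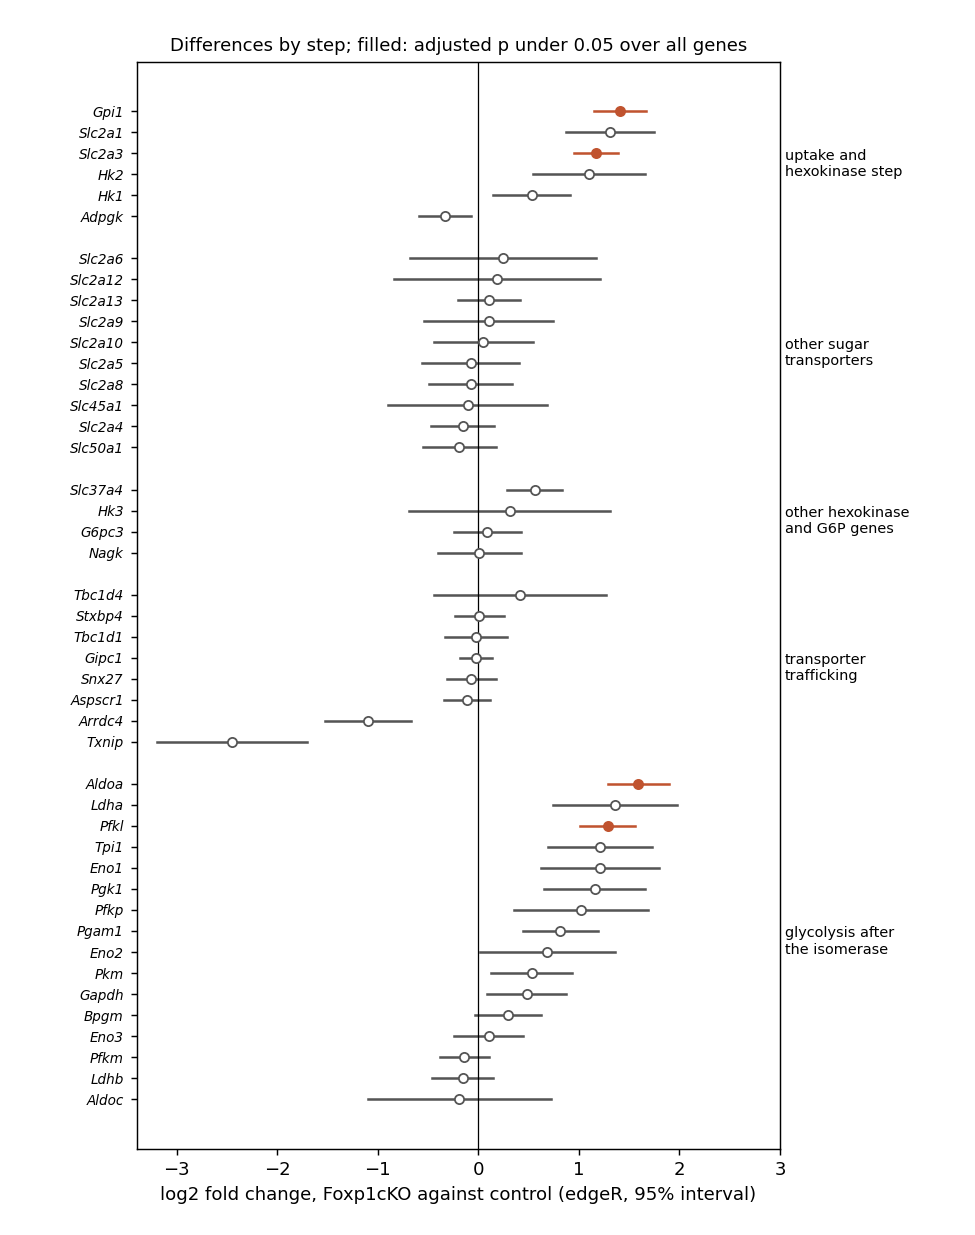
Log2 fold change of libraries labelled Foxp1cKO against controls (horizontal axis, edgeR fit, bars are 95% intervals) for the 6 genes and for listed genes of 4 further steps. Filled orange points passed the adjusted p of 0.05 over all genes. Gpi1, Slc2a3, Aldoa and Pfkl are filled, the further sugar transporters lie between -0.19 and 0.25, and Txnip is lowest at -2.45.

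Marker lists of other cell types were read in the same libraries, and 0 of the markers in any list had a count of 0 in a library. Red cell markers (10 of 10 in the table) summed to 1473, 1115, 1167 and 3615 CPM in controls 1 to 4 and to 3909 and 4200 CPM in the Foxp1cKO libraries. Control 4 was thus near the Foxp1cKO libraries. None of the 10 passed edgeR's test, and 3 had an unadjusted p under 0.05, beside 2224 of all 17068 genes. In DESeq2 1 of the 10 rose, beside 1.75% of all tested genes. It was the globin gene Hba-a1, named here after its values were seen (log2 fold change 1.11, adjusted p = 0.0344). Their log2 fold changes ran from -0.17 (Hbb-bs) to 1.71 (Hba-x). Against control 4 alone, which was closest in red cell markers, the mean log2 difference of the Foxp1cKO libraries was 1.22 for Slc2a1, 1.33 for Slc2a3, 0.84 for Hk1, 0.78 for Hk2, 1.23 for Gpi1 and -0.43 for Adpgk. These signs were fixed in advance, since both Foxp1cKO libraries lay beyond every control for each of these genes. Control 4 is also 1 library, and the part of blood content was not tested.

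Markers of endothelium (10 of 10) summed to 230, 154, 150.2 and 185 CPM in controls 1 to 4 and to 208 and 256 CPM in the Foxp1cKO libraries, so that the groups overlapped. Flt1, a VEGF receptor, was the one that passed, and it rose by 1.64 on the log2 scale (SE 0.159, adjusted p = 0.0179 in edgeR), while Tek was lowest at -0.35. DESeq2 called 2 of the 10 higher, beside 1.75% of all tested genes. They were Flt1 and Pecam1, an adhesion molecule of endothelium named here after its values were seen. Pecam1 lay above all controls in both Foxp1cKO libraries (log2 fold change 0.65, adjusted p = 0.0317 in DESeq2 and 0.251 in edgeR). Brain-barrier endothelial markers (4 of 5 in the table), from cells in which Slc2a1 is abundant, summed to 84.2 to 100.4 CPM in controls and 85.8 and 99.5 CPM in the Foxp1cKO libraries, with 0 passing in edgeR or DESeq2 (1 at an unadjusted p under 0.05). Most of this sum was Slc7a5, named here after its values were seen, with means of 60.3 CPM in controls and 65.4 CPM in the Foxp1cKO libraries. Slco1c1 had 2.01 and 1.86 CPM and Abcb1a 2.60 and 3.08 CPM. The sum thus mainly followed Slc7a5. The log2 fold changes of the list ran from -0.37 (Mfsd2a) to 0.25 (Abcb1a). Mfsd2a lay below all controls in both Foxp1cKO libraries, as did 13.1% of all genes (adjusted p = 0.289 in edgeR). Pericyte markers (6 of 6) did separate the groups, with sums of 71.4 to 93.5 CPM in controls and 113 and 119 CPM in the Foxp1cKO libraries. None of the 6 passed edgeR's test (3 at an unadjusted p under 0.05), and Rgs5, highest at 0.61, rose in DESeq2 (adjusted p = 0.000781). Anpep was lowest at -0.10. The part of pericytes, endothelium and red cells in the values of the 6 genes was not tested.

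Radial glia markers (7 of 8 in the table) summed to 2087 to 2511 CPM in controls and 2303 and 2352 CPM in the Foxp1cKO libraries, and intermediate progenitor markers (4 of 4) to 622 to 842 CPM and 588 and 675 CPM. Fabp7 was lowest and Hes1 highest among the former, at -0.43 and 0.49, and Btg2 and Neurog2 were the ends of the latter, at -0.35 and -0.08. Microglia markers (7 of 7) summed to 20.8 to 33.6 CPM in controls and 31.9 and 33.0 CPM in the Foxp1cKO libraries, from P2ry12 at -0.19 to C1qa at 0.81. Meningeal and mesenchymal markers (6 of 6) summed to 92.7 to 562 CPM and 150 and 340 CPM, from Col1a2 at -0.48 to Foxc1 at 0.02. Of the dorsal markers Lhx2 was at -0.03 and Emx2 at 0.10, and of the ventral ones Nkx2-1 was at -2.23, with 13.2 CPM in control 3 and at most 1.07 CPM elsewhere, and Gsx2 at 0.54. None of these markers passed in edgeR or DESeq2, which gave no adjusted p for Nkx2-1. Of the radial glia markers 2, of the intermediate progenitor markers 1 and of the microglia markers 1 had an unadjusted p under 0.05 in edgeR. Without control 3, Slc2a3 and Gpi1 still rose, and Gpi1 had a log2 fold change of 1.33.

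**Figure D5:**
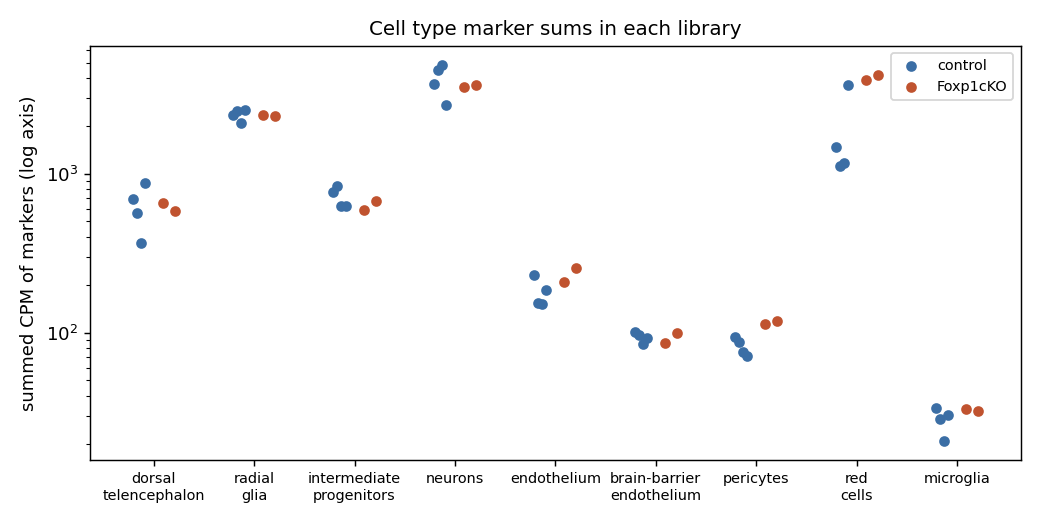
Summed CPM of cell type markers (vertical axis, log scale) in each library, controls in blue in the order 1 to 4 and libraries labelled Foxp1cKO in orange in the order 1 and 2. Red cell markers separate control 4 (3615 CPM) from the other controls, and pericyte markers are higher in both Foxp1cKO libraries (113 and 119 CPM) than in any control.

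The genes whose log2 CPM followed each of the 6 most closely over the 6 libraries were named by Pearson's r among 13851 genes with a mean of at least 1 CPM. With 6 points in 2 groups, many genes reach a high r, and the values are a description. For Slc2a1 they were P4ha1, Peli2 and Kdm3a, each with r = 0.993. For Slc2a3 they were Atp7b (0.990), Vegfa (0.985) and Igf1r (0.984). For Hk1 they were Kmt2e (0.992), Smim10l1 (0.992) and Gm16083 (0.989), and for Hk2 they were Galk1 (0.996), Bsg (0.991) and Lingo3 (0.990). Gpi1 was followed most closely by Smyd3 (0.997), Tyrobp (0.997) and Pfkl (0.995), and Adpgk by Mrfap1 (0.997), Eci2 (0.996) and Prpf19 (0.996). The 18 neighbours were all different genes.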

How the data were processed

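The authors mapped stranded paired-end RNA-Seq reads to mm10 (STAR), made gene counts with HTSeq 0.9.1 in union mode, removed genes of low count and deposited whole, unnormalized counts of 17068 genes. They also deposited VST values of these counts, on a log2-like scale, which were used here only for alternatives. The labels gave each library's group, 4 controls and 2 Foxp1cKO. They gave no litter, so the litter term of the authors' model was not used here, and 0 columns of sample values were left unused.

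The 6 genes and all gene lists were chosen with earlier results of these data known. Counts were tested with the quasi-likelihood test of edgeR 4.0.16 in R 4.3.3, with TMM scaling, the group alone in the model, all 17068 genes and Benjamini-Hochberg adjustment at 0.05. Log2 CPM used a prior count of 2. Ratios within a library were compared by exact permutation tests, two-sided. DESeq2 1.42.0 (without independent filtering), limma 3.58.1 with a trend on the VST values, other scalings, filters on low counts, a robust fit, the replicate number as a block, longest-transcript lengths and each library left out in turn were the alternatives. The fits were tested on simulated data. By identifier without its version, 17047 of 17068 genes were found in GENCODE M21 and 21 were not, and the authors counted on another release. RPKM used its merged exon lengths. Promoters came from RefSeq tables on GRCm38.p6.

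Totals were 50076008 to 78346979 counts per library. Floors and intervals of counting cover counting error only, as PCR copies of a molecule are counted too. Any pair of controls differed by a chi-square of 25.9 to 193 for each gene and the Foxp1cKO pair by 31.4, so no library was a copy of another.

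Named genes were the 6 members, Foxp1, the measured genes of the sugar transporter, hexokinase-family and trafficking lists (some listed genes are not reported here and were left out of every list's counts and sums), from each other list the genes that passed the test (up to 6) and the largest and smallest fold changes, and the 3 nearest genes of each member by Pearson's r. Of the listed genes, Slc2a2, Slc2a7, Slc5a1, Slc5a2, Slc5a3, Slc5a9, Slc5a11, Hkdc1, Gckr, G6pc, G6pc2, G6pd2, Sox2, Tubb3 and Slco1a4 were not analysed here.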

Additional observations from a re-analysis of the deposited data

Results flagged for a closer look

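The summed level of 10 red cell markers was 3615 CPM in control 4, above 1473 CPM in control 1 and a lowest value of 1115 CPM in control 2. The gap from control 4 to the next control was 0.857 of the whole range of the 4 controls, over Dixon's critical value for 4 samples. Of 43 values checked in this way, this was the one that stood out, where chance alone sets apart about 1 in 20. The level of control 4 was close to the 3909 and 4200 CPM of the libraries labelled Foxp1cKO. Without control 4, Slc2a3 and Gpi1 still rose by edgeR's test, and 96 genes passed in all.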

How the results depend on the processing

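The 6 genes kept the sign of their fold changes under all 14 alternatives, from 0.93 to 1.60 for Slc2a1, 1.06 to 1.19 for Slc2a3, 0.42 to 0.61 for Hk1, 0.80 to 1.34 for Hk2, 1.33 to 1.47 for Gpi1 and -0.43 to -0.26 for Adpgk. Both Foxp1cKO libraries lay beyond every control for each of these genes. Leaving out a library could therefore not turn a sign, and the kept signs are no separate evidence. The calls were less stable. With DESeq2, 474 genes passed in place of 26, and 4 of the 6 members, with Slc2a1 at 1.31 and Hk2 at 1.11 now past the threshold. Under a replicate block, 0 genes and 0 members passed in edgeR's test (3027 genes at an unadjusted p under 0.05), Slc2a3 had 1.13 (adjusted p = 0.126) and Gpi1 1.39 (adjusted p = 0.0808). Deviations of same-numbered libraries correlated at -0.198 and 0.0157. With 2 Foxp1cKO libraries the deviations are opposite by construction, and exchanging their numbers only turned the signs (0.198 and -0.0157). These correlations therefore cannot show whether same-numbered libraries belong together. The paper used Cre-negative littermates as controls and a litter term, but the labels name no litter. With 1 library left out in turn, 2 to 96 genes and 0 to 2 members passed, and Slc2a3 ranged from 1.12 to 1.19 and Gpi1 from 1.33 to 1.47. Both lost their calls without control 1, control 2, Foxp1cKO 1 or Foxp1cKO 2, in fits with fewer libraries, and the cause was not tested further. Where 1 Foxp1cKO library was left, it was assumed to vary like the controls. Their calls held with limma, other scalings, both filters, the robust fit and without control 3 or control 4. The difference of the Slc2a3 to Slc2a1 ratio was -0.43 to 0.22 with 1 library left out, and it reversed to 0.22 without Foxp1cKO 2. Divided by the longest transcript, control levels were 3.23 RPKM for Slc2a3, 14.8 for Hk1, 80.8 for Gpi1 and 7.92 for Adpgk. The 6 genes had at least 1273 counts in each library, and the spread of the Foxp1cKO group rests on 2 libraries.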

Other observations

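The Foxp1cKO libraries differed from each other in some of the 6 genes. Foxp1cKO 2 had more Slc2a1 (283 against 180 CPM) and Hk2 (124 against 85.8 CPM) than Foxp1cKO 1, less Hk1 (84.9 against 97.8 CPM) and a like level of Slc2a3 (45.6 against 45.4 CPM). With 2 libraries there is no test of this pattern.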
